A study of Rattus norvegicus with 8 samples.

Results

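The genes Gsk3a, Gsk3b, Akt1 and Akt2 were followed across 4 groups of rat H9C2 cells by poly(A) RNA sequencing. They encode both GSK-3 kinases and 2 of the Akt kinases that inhibit them. The 4 genes were taken by name from a table of 32258 features, of which 20259 had exon reads, and all 4 were among the 12407 genes tested. H9C2 is a cardiomyoblast line derived from embryonic rat heart. In every group, controls included, the cells received a pDC316 vector and were left for 2 days. The control vector carried YFP alone (YFP). The others carried YFP joined to the nuclear receptor PPARα as wild type (WT), with alanine at serine 280 so that the site resists phosphorylation (S280A), or with aspartate there to mimic it (S280D). There were 2 libraries in a group (n = 2 throughout). Whether the members of a group were separate cultures is not in the labels, and the p-values then reflect only how far these samples spread. The cells keep their own Ppara gene in all groups, no receptor ligand is named in the labels, and cells without vector were not analysed here.

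GSK-3α and GSK-3β are serine/threonine kinases from separate genes that are active in resting cells and phosphorylate glycogen synthase, β-catenin and many other proteins. Insulin and growth factor receptors switch on PI3-kinase, whose lipid product brings Akt to the membrane, where PDK1 and an mTOR complex activate it. Akt then phosphorylates an inhibitory serine near the amino end of both GSK-3 proteins, a switch known in heart cells from work on growth, glycogen storage and survival. GSK-3 acts on serine 280 of PPARα, the residue that the mutants change. Only mRNA was measured here, and kinase protein, phosphorylation and activity were not.

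In the coordinates of the deposited table (Rnor_6.0), Gsk3a spans chromosome 1, 82097246 to 82108203, with 15 exons, and Gsk3b spans chromosome 11, 65066234 to 65209268, with 14. Akt1 spans chromosome 6, 137218375 to 137236258, with 13 exons, and Akt2 spans chromosome 1, 84411725 to 84450162, with 14. The start-site sequences below come from RefSeq (GRCr8), a different build from that of the counts, in which all 4 genes were matched by symbol. A window of 250 bases before the start was printed whole where it lies directly before the gene's outermost start, as for Gsk3a. Elsewhere only a stretch around a motif match was printed, as for Akt1. The windows of Gsk3b and Akt2 met neither condition. No link of these letters to the mRNA differences was tested. The Gsk3a window, chr1:89953515-89953764 on the minus strand, lies directly before the gene's outermost start and has 61.2% G and C, against a median of 51.2% over 33469 such windows. Capitals mark its GC box, GGGCGG read on the other strand, which begins 140 bases before the start.
Gsk3a: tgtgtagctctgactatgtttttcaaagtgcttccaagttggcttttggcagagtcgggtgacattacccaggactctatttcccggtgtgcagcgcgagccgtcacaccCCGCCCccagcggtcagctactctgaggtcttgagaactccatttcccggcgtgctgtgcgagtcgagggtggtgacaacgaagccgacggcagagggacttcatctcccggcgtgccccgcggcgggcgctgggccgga
The Akt1 stretch of 30 bases, chr6:137552814-137552843 on the minus strand, has in capitals a single AGGTCA, the core that nuclear receptors such as PPARα bind when it is repeated. It begins 221 bases before the listed start, which itself lies 2521 bases inside the gene's outermost start.
Akt1: cttcagagagagAGGTCAggcaggctggca
Searched on both strands, AGGTCA was found in 14.1% of the windows, GGGCGG in 30.5%, and the repeat with 1 base between, AGGTCANAGGTCA, in 0.0508%. None of the 4 kinase windows held the repeat, and those of Gsk3b and Akt2, whose listed starts lie 1416 and 17212 bases inside the gene, held none of the 3 motifs. A match is a description of letters, and no binding was measured.

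Exon reads totalled 14018785 to 39526013 per library. Ppara reads went with the labels, at 74.4 and 59.5 reads per 1000000 (CPM) in YFP and 12382 to 24134 CPM in the 6 libraries with a receptor. Both ends of that range were WT libraries. S280A had 17400 and 13736 CPM, and S280D 17911 and 17693 CPM. The table's headers place both controls in lane 1 and the WT pair in lane 2, with S280A replicate 1 and S280D replicate 2 in lane 2 and their partners in lane 1. The WT and YFP libraries by themselves do not separate lane from group, and a lane term in the fit of all 8 libraries rests on S280A and S280D. The first principal component, with 56.4% of the variance, put YFP and S280A at -51 to -16.4 and WT and S280D at 20.7 to 47.5. A gene's deviation from its mean over the 8 libraries went with its exon length. Spearman's rho across genes, which are not independent replicates, was -0.247 to -0.0648 in YFP and S280A and 0.129 to 0.238 in WT and S280D. Of the muscle markers searched, Tnnt2 was at 129 to 265 CPM and Gata4 at 6.01 to 10.7 CPM. Myod1, Myog, Myf5, Des, Actc1, Nkx2-5, Myh6 and Tnni3 stayed at 1.33 CPM or below, so the markers of cardiac and skeletal muscle were mostly absent. Fibroblast markers (Col1a1, Col1a2, Pdgfra and Postn) summed to 51134 to 60654 CPM in YFP and S280A and 36942 to 44314 CPM in WT and S280D. The collagens Col1a1 and Col1a2 carried that sum, and Pdgfra stayed at 0.562 CPM or below in every library. Postn went the other way, at 1225 to 1814 CPM in YFP and S280A and 1948 to 2469 CPM in WT and S280D. Smooth muscle markers (Acta2, Tagln and Myh11) summed to 12132 to 17151 CPM and 8611 to 10129 CPM in the same order, carried by Acta2 and Tagln, while Myh11 was at 3.46 to 4.56 CPM and 5.07 to 5.75 CPM. Ptprc was at 0, and the endothelial, macrophage and epithelial markers measured each summed to at most 1.31 CPM. The kinase differences described next follow the same division of the groups, and what part lane, exon length or the markers had in them was not tested beyond the fits given.

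Gsk3b, the gene of GSK-3β, had more mRNA in cells with WT or S280D receptor than in controls, and Gsk3a, Akt1 and Akt2 stood lower there. S280A libraries lay near the controls for Gsk3a, Akt1 and Akt2 and between controls and WT for Gsk3b. All values are CPM of exon reads scaled by TMM, and a gene is called changed when its p from the quasi-likelihood test of edgeR, adjusted over all 12407 genes by Benjamini-Hochberg, is under 0.05. By that rule 2 of the 4 kinases changed in WT against YFP, where 19.6% of all genes tested did, and 2 in S280D against YFP, where 30.7% did. For S280A against WT it was 1 of 4 beside 26%, and for S280D against S280A all 4 beside 39.3%. None of the 4 was called in S280A against YFP or in S280D against WT, where 0.0403% of all genes were called in each. At an unadjusted p under 0.05 the edgeR counts there were 1 and 0 of the 4 kinases, beside 1439 and 606 of all 12407 genes. DESeq2 called 0 of the kinases in both. Of all genes it called 73 higher and 27 lower in S280A against YFP, and 8 higher and 32 lower in S280D against WT. In bulk samples fewer cells of a type and less RNA per cell cannot be told apart.

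**Figure D1:**
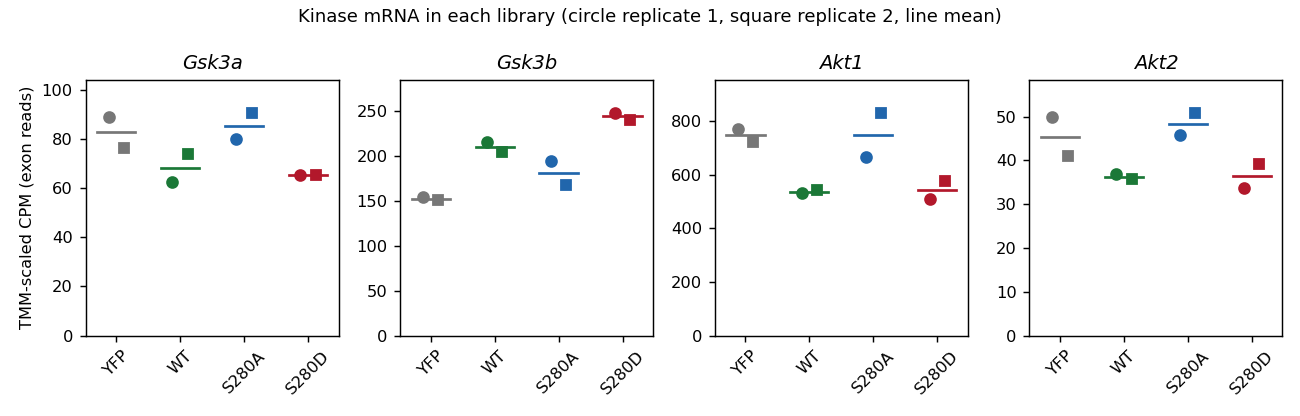
TMM-scaled CPM of exon reads (vertical axis, from 0) of each kinase gene in the 8 libraries by construct (horizontal axis); circles stand for replicate 1, squares for replicate 2 and lines for group means. For Gsk3b both S280D libraries (248 and 240 CPM) stand above all others, while for Akt1 and Akt2 the WT and S280D libraries all stand below those of YFP and S280A.

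Gsk3b measured 154 and 151 CPM with YFP alone, 216 and 204 CPM with WT, 195 and 168 CPM with S280A and 248 and 240 CPM with S280D. No group overlapped another: YFP was lowest, then S280A, WT and S280D. S280D exceeded YFP by 0.68 ± 0.11 (SE) on the log2 scale, a 1.60-fold difference (adjusted p = 0.00245). WT exceeded YFP by 0.46 ± 0.11 (adjusted p = 0.0198) and S280D exceeded S280A by 0.43 ± 0.11 (adjusted p = 0.0139). The remaining steps in that order did not pass the test, with log2 differences of 0.25 ± 0.11 for S280A against YFP (adjusted p = 0.427), -0.21 ± 0.11 for S280A against WT (adjusted p = 0.187) and 0.22 ± 0.11 for S280D against WT (adjusted p = 0.948). The 95% interval for S280D against WT ran from -0.03 to 0.47.

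The S280D increase of Gsk3b over YFP was called under all 8 other settings tried and without any single library, with log2 values of 0.62 to 0.70 and adjusted p of at most 0.0264. With lane as a term 9 of all genes were called in WT against YFP, in place of 2437. The WT difference of Gsk3b was then 0.38 ± 0.18 (SE), of similar size and less precise, and was not called (adjusted p = 0.344). The call was also lost without YFP replicate 1 (0.48, adjusted p = 0.0696), WT replicate 1 (0.42, adjusted p = 0.169) or WT replicate 2 (0.50, adjusted p = 0.0783). The difference between S280D and S280A kept its call with lane as a term (adjusted p = 0.029) but not without S280A replicate 2 (0.31, adjusted p = 0.138) or S280D replicate 1 (0.42, adjusted p = 0.102). Within lane 1 S280D exceeded S280A by 0.56 and within lane 2 by 0.30, each from 1 library a side.

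Gsk3a, the gene of GSK-3α, was at 88.8 and 76.5 CPM with YFP alone, 62.7 and 73.9 CPM with WT, 79.8 and 90.5 CPM with S280A and 65.4 and 65.5 CPM with S280D. The WT and S280D libraries were the lower 4 of the 8, and YFP and S280A overlapped. Gsk3a fell by 0.38 ± 0.13 (SE) on the log2 scale in S280D against S280A (0.77-fold, adjusted p = 0.0411), its only call. In the other contrasts the log2 differences were -0.28 ± 0.13 for WT against YFP (adjusted p = 0.160), -0.34 ± 0.13 for S280D against YFP (adjusted p = 0.0742) and 0.32 ± 0.13 for S280A against WT (adjusted p = 0.096). S280A differed from YFP by 0.04 ± 0.13 and S280D from WT by -0.06 ± 0.13 (adjusted p = 0.920 and 0.961), with 95% intervals of -0.25 to 0.33 and -0.35 to 0.23. The S280D against S280A call was lost with lane as a term (-0.38, adjusted p = 0.0707), with no filter on low counts (adjusted p = 0.0777) and with only the 4 libraries compared (0.0567). It was also lost without WT replicate 1 (adjusted p = 0.0555), WT replicate 2 (0.0535), S280A replicate 2 (0.215), S280D replicate 1 (0.199) or S280D replicate 2 (0.127). In S280D against YFP it passed without YFP replicate 2 (-0.44, adjusted p = 0.0462). Gsk3a shares its position with Zfp526, a zinc finger gene with at most 377 exon reads in a library, against 1124 to 2706 for Gsk3a.

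Akt1, the broadly expressed Akt gene, had 771 and 723 CPM with YFP alone, 533 and 542 CPM with WT, 665 and 830 CPM with S280A and 509 and 576 CPM with S280D. The S280A libraries bracketed those of YFP, and the S280D libraries bracketed those of WT. Akt1 fell by 0.47 ± 0.13 (SE) on the log2 scale in WT against YFP (0.72-fold, adjusted p = 0.029), by 0.46 ± 0.13 in S280D against YFP (adjusted p = 0.0224) and by 0.46 ± 0.13 in S280D against S280A (adjusted p = 0.0174). It rose by 0.48 ± 0.13 in S280A against WT (1.39-fold, adjusted p = 0.0244). S280A and YFP differed by 0.00 ± 0.13 and S280D and WT by 0.01 ± 0.13 (adjusted p = 0.998 and 0.992). Their 95% intervals reached from -0.28 to 0.29 and from -0.27 to 0.30.

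With lane as a term only the S280D against S280A call of Akt1 was kept (-0.46, adjusted p = 0.0375). The others had log2 differences of similar size and larger errors, at -0.41 ± 0.21 (SE) for WT against YFP, -0.42 ± 0.17 for S280D against YFP and 0.44 ± 0.17 for S280A against WT (adjusted p = 0.371, 0.113 and 0.113). All genes called in those contrasts went from 2437 to 9, from 3815 to 1654 and from 3226 to 993. Single libraries mattered as well: WT against YFP was lost without YFP replicate 1 (adjusted p = 0.110), WT replicate 1 (0.188) or WT replicate 2 (0.120), and S280D against YFP without YFP replicate 1 (0.0945) or S280D replicate 1 (0.241). S280A against WT was lost without WT replicate 1 (adjusted p = 0.168), WT replicate 2 (0.0892) or S280A replicate 2 (0.176), and S280D against S280A without S280A replicate 2 (0.146) or S280D replicate 1 (0.193). The sign of every called Akt1 difference was kept in each of these fits. Between S280D and S280A the log2 difference was -0.71 within lane 1 and -0.21 within lane 2, each from 1 library a side.

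Akt2, known for its part in insulin-stimulated glucose uptake, was at 49.8 and 41.1 CPM with YFP alone, 36.9 and 35.8 CPM with WT, 45.9 and 50.8 CPM with S280A and 33.6 and 39.2 CPM with S280D. As for Gsk3a, the WT and S280D libraries were the lower 4, and YFP overlapped S280A. Akt2 fell by 0.41 ± 0.14 (SE) on the log2 scale in S280D against S280A (0.75-fold, adjusted p = 0.0394). S280A stood 0.41 ± 0.14 above WT (adjusted p = 0.0545), while WT and S280D each had a log2 difference of -0.32 ± 0.14 from YFP (adjusted p = 0.130 and 0.104). S280A differed from YFP by 0.09 ± 0.14 (95% interval -0.22 to 0.40, adjusted p = 0.828) and S280D from WT by 0.00 ± 0.14 (-0.31 to 0.31, adjusted p = 1.000). The S280D against S280A call was not made with lane as a term (-0.41, adjusted p = 0.0682), with no filter on low counts (0.0759) or with only the 4 libraries compared (0.0641). It was lost, too, without WT replicate 1 (adjusted p = 0.0673), WT replicate 2 (0.062), S280A replicate 2 (0.189), S280D replicate 1 (0.311) or S280D replicate 2 (0.051). In the other direction, S280A against WT passed without YFP replicate 1 (adjusted p = 0.0398) or YFP replicate 2 (0.0379), and S280D against YFP without YFP replicate 2 (0.0463). The smallest count behind these values was 600 reads in WT replicate 2, where the exact 95% Poisson interval of 35.8 CPM is 33.0 to 38.7 CPM. That interval covers counting error only.

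**Figure D2:**
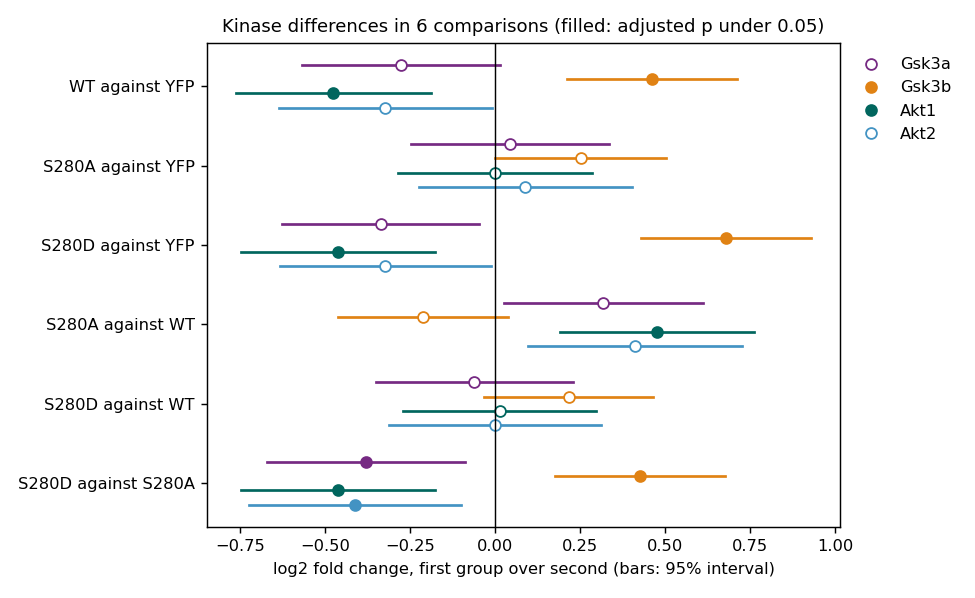
Log2 fold change of each kinase (horizontal axis, first group over second) in the 6 comparisons (vertical axis), with 95% intervals from edgeR's fit of all 8 libraries; filled points have an adjusted p under 0.05. Gsk3b lies on the opposite side of 0 from Akt1 and Akt2 in the 4 comparisons between either of YFP and S280A and either of WT and S280D, and comparisons that share a group share its libraries.

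Set against all genes tested, the kinase differences were moderate in size. The 0.68 of Gsk3b in S280D against YFP was larger in absolute value than the differences of 76.8% of the genes. In S280D against S280A the absolute differences of Gsk3a, Gsk3b, Akt1 and Akt2 ranked at 43.0%, 48.6%, 52.6% and 46.9% of the genes, near the middle. An offset that removes the trend with exon length in each library moved the median of all genes from -0.01 to -0.13 in S280D against S280A and from -0.02 to -0.13 in S280D against YFP. Relative to the moved median, Gsk3b was at 0.50 in S280D against S280A and 0.74 in S280D against YFP, and Akt1 at -0.44 and -0.43. All 9 kinase calls were also made with this offset, and Gsk3a then passed in S280D against YFP (-0.42, adjusted p = 0.0361) and Akt2 in S280A against WT (0.47, adjusted p = 0.0338). In S280A against WT the median of all genes moved from 0.01 to 0.10. Relative to the moved medians Gsk3a was at -0.29 and Akt2 at 0.36, no larger than the -0.34 and 0.41 without the offset. The exon models are 2216, 2039, 2418 and 1984 bases long for Gsk3a, Gsk3b, Akt1 and Akt2, near the median of 2314 bases over the genes tested.

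In the authors' deposited table Gsk3b had fold changes of 1.37 from YFP to WT, 1.62 from YFP to S280D and 1.36 from S280A to S280D, with false discovery rates of 0.0308, 7.53e-05 and 0.0243. For Akt1 the authors' deposited table gives -1.39, -1.36 and -1.37 in the same order (0.0283, 0.0369 and 0.0268) and 1.40 from WT to S280A (0.022). Gsk3a and Akt2 passed in none of the contrasts of the authors' deposited table at that threshold. From S280A to S280D, where edgeR called both, its false discovery rates are 0.140 and 0.117.

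Per kilobase of exon, Akt1 was the most abundant of the kinases and Akt2 the least. Over the 8 libraries Akt1 averaged 266 CPM per kilobase, above 97.9% of the genes tested. Gsk3b averaged 96.6, Gsk3a 34.0 and Akt2 20.98 CPM per kilobase, above 93.6%, 82.4% and 73.8% of genes. In no library did Akt1 and Gsk3b, or Gsk3b and Gsk3a, change places in this order. The lowest Akt1 library stood at 210 CPM per kilobase and the highest Gsk3b library at 121. Gsk3b ran from 73.9 to 121 CPM per kilobase and Gsk3a from 28.3 to 40.8, while Akt2 (16.9 to 25.6) stayed under Gsk3a.

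The ratio of Gsk3a to Gsk3b was lower in each WT and S280D library than in each YFP and S280A library, while Akt1 exceeded Akt2 by 11.9 to 14.4 times per kilobase in every library. The Gsk3a to Gsk3b ratio per kilobase was 0.530 and 0.467 in the controls. It was 0.267 and 0.33 with the WT receptor, 0.377 and 0.496 with S280A, and 0.243 and 0.251 with S280D. YFP and S280A overlapped, and the WT and S280D libraries all lay below them. The group means were 0.498 ± 0.0443 (SD), 0.300 ± 0.0465, 0.436 ± 0.0839 and 0.247 ± 0.00556. No test of the ratios was made. For a pair of groups, an exact two-sided permutation of 2 libraries against 2 cannot give a p under 0.33. The mean Akt1 to Akt2 ratio was 13.6 ± 1.23 (SD) with YFP alone, 12.1 ± 0.407 with WT, 12.6 ± 1.07 with S280A and 12.2 ± 0.241 with S280D. S280A overlapped every other group in it, and YFP, at 12.7 and 14.4, lay above WT and S280D.

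**Figure D3:**
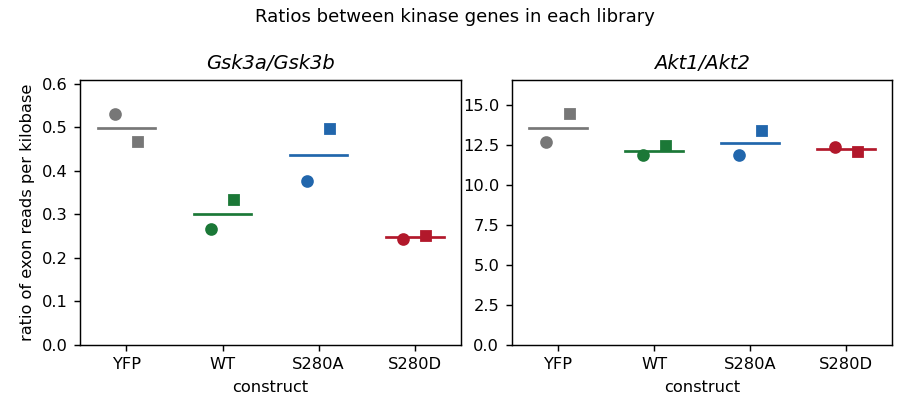
Ratio of exon reads per kilobase (vertical axis, from 0) of Gsk3a to Gsk3b and of Akt1 to Akt2 in each library by construct (horizontal axis); circles stand for replicate 1, squares for replicate 2 and lines for group means. The Gsk3a to Gsk3b ratio lies at 0.467 to 0.530 in YFP and 0.243 to 0.251 in S280D.

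The deposited table also counts reads that span exon junctions, which come from spliced RNA, and reads inside introns. Junction reads of Gsk3b and Akt1 followed the exon reads. For Gsk3b they stood at 73.8 and 74.9 CPM with YFP alone, 109 and 101 CPM with WT, 99.5 and 91.1 CPM with S280A and 127 and 122 CPM with S280D, in the order of the exon reads. For Akt1 the junction reads were 227 and 220 CPM with YFP alone, 144 and 152 CPM with WT, 210 and 256 CPM with S280A and 144 and 164 CPM with S280D, so WT and S280D again lay below the rest. Gsk3a junction reads were 32.2 and 23.96 CPM with YFP alone and 20.99 and 26.2 CPM with WT. With S280A they were 26.6 and 32.9 CPM, and with S280D 21.5 and 22.8 CPM. WT replicate 2 thus lay above YFP replicate 2, unlike in the exon reads of Gsk3a. For Akt2 the WT and S280D libraries, at most 15.8 CPM, lay below those of YFP and S280A, at least 15.99 CPM. Junction reads made up 47.9% to 54.2% of exon reads for Gsk3b, 36.2% to 42.8% for Akt2, 31.3% to 36.3% for Gsk3a and 27.1% to 31.6% for Akt1. Between YFP and S280D these shares overlapped for Gsk3a. For Gsk3b they were higher in S280D, and for Akt1 lower. Those of Akt2 nearly met, at 38.4% and 38.9% in YFP and 38.3% and 36.3% in S280D. The shares were not tested.

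Intron reads of Gsk3b and Gsk3a moved less than their exon reads. For Gsk3b they were 17.2 and 19.004 CPM with YFP alone, 20.8 and 20.3 CPM with WT, 20.2 and 20.7 CPM with S280A and 23.4 and 23.7 CPM with S280D. S280D was again highest and YFP lowest, while WT and S280A overlapped. Gsk3a intron reads, at 11.5 and 13.1 CPM with YFP alone, 12.2 and 10.7 CPM with WT, 9.97 and 10.9 CPM with S280A and 12.1 and 12.02 CPM with S280D, did not have the order of its exon reads, and S280D lay above S280A. Akt1 had 35 to 164 and Akt2 22 to 117 intron reads per library, too few to rank the groups. As a share of exon and intron reads together, introns gave 10.7% to 16.3% for Gsk3a, 8.63% to 11.2% for Gsk3b, 3.25% to 9.23% for Akt2 and 0.338% to 0.773% for Akt1. Over all genes introns took 10.99% and 11.9% of the reads of the controls and 14.2% to 15.8% of those of the receptor libraries. The part of that difference in the intron values was not tested. Between 98.7% and 100% of the exon reads of Gsk3b, Akt1 and Akt2 were unique to 1 place, against 89.0% to 91.6% for Gsk3a. With unique reads alone all 9 kinase calls were made.

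**Figure D4:**
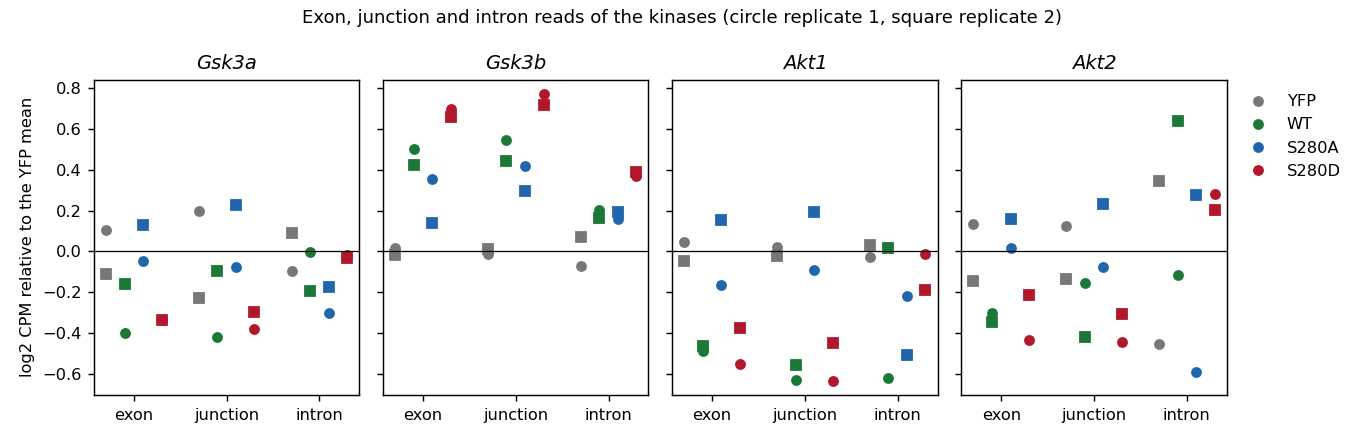
Exon, junction and intron reads of each kinase as log2 CPM relative to the mean of both YFP libraries (vertical axis), coloured by construct, with circles for replicate 1 and squares for replicate 2. For Gsk3b the S280D libraries lead in all 3 readouts; intron reads of Akt1 (35 to 164 per library) and Akt2 (22 to 117) scatter widely.

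Across the 8 libraries log2 CPM of Akt1 correlated with that of Akt2 at Pearson's r of 0.938 and with that of Gsk3a at 0.907, and Gsk3a with Akt2 at 0.887. Gsk3b ran opposite to all of them, at -0.87 with Akt1, -0.813 with Gsk3a and -0.732 with Akt2. These values describe 8 libraries that share their depth and scaling and fall into separate groups. Of 10913 named genes, those with the most similar pattern to Gsk3b were Giot1, Myof and Cav2 (r of 0.993, 0.993 and 0.990), of which Myof encodes a membrane repair protein and Cav2 a caveolin. For Akt1 they were Creb3, Man2c1 and Mvd (0.998, 0.997 and 0.996), the last an enzyme of cholesterol synthesis. For Gsk3a they were Zfp498, Pdlim7 and Impdh1 (0.991, 0.988 and 0.987), and for Akt2 Daam2, Galt and Ap2b1 (0.992, 0.991 and 0.991). Such values were common, since 1254 genes had r over 0.9 with Akt1, 954 with Gsk3a, 856 with Akt2 and 497 with Gsk3b.

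The wider pathway was read from a list of 72 genes in 9 roles, of which 67 were found in the table by name and 63 were tested. Between S280D and S280A, 18 of the 63 rose, where 21.3% of all genes tested did, and 9 fell, where 18% did. In WT against YFP 9 rose and 5 fell, beside 12.2% and 7.45% of all genes. In S280D against YFP 14 rose and 8 fell (17.1% and 13.7% of all genes), and in S280A against WT 7 rose and 13 fell (10.1% and 15.9%). The share of the list that changed was thus close to that of all genes in each comparison. The list's median log2 difference was -0.01 in S280D against S280A and 0.08 in WT against YFP, and that of all genes -0.01 in both. None of the 63 was called in S280A against YFP or S280D against WT by edgeR or DESeq2. At an unadjusted p under 0.05 in edgeR there were 4 and 1 of the 63, beside 1439 and 606 of all 12407 genes tested.

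**Figure D5:**
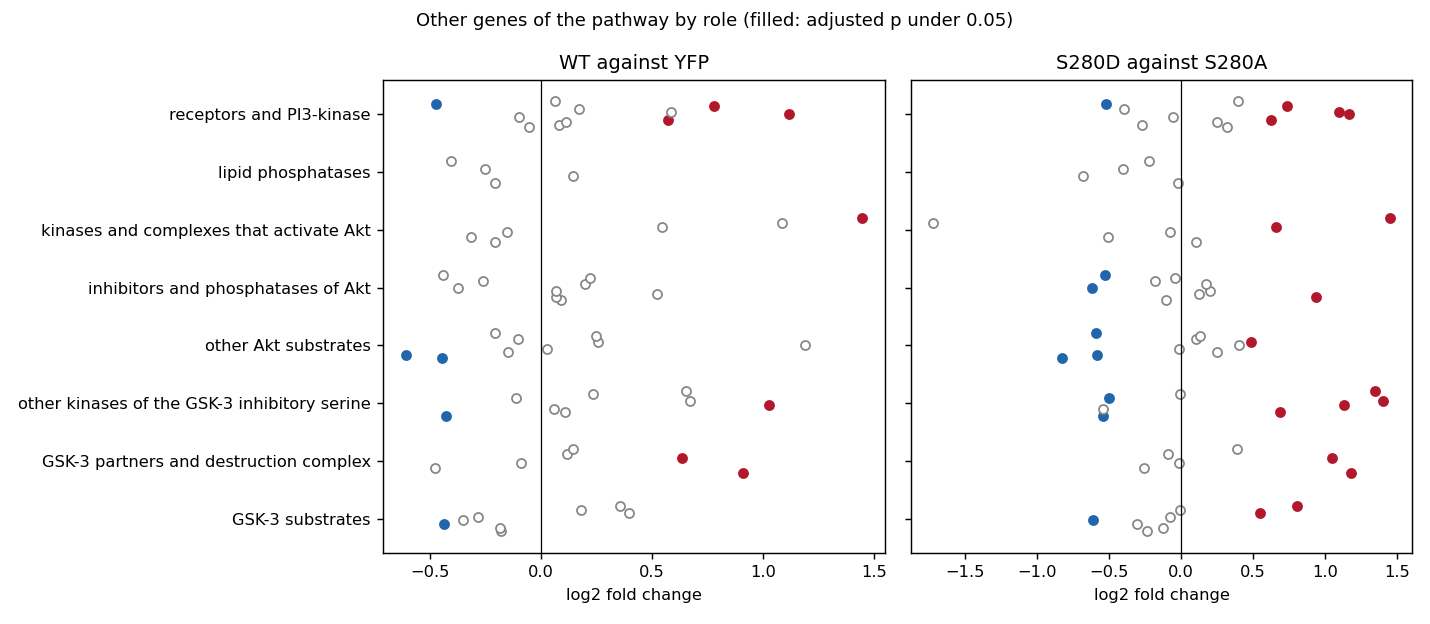
Log2 fold change (horizontal axis) of tested pathway genes by role (vertical axis) in WT against YFP and S280D against S280A; filled points passed an adjusted p of 0.05, red higher and blue lower, and open points did not pass. Members of most roles lie on both sides of 0.

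Among receptors, adaptors and PI3-kinase subunits, 4 of 11 tested rose and 1 fell in S280D against S280A. Of all genes tested 21.3% rose and 18% fell in that contrast, and no role was tested as a set. Pik3ca, the catalytic subunit p110α, went from 26.8 ± 3.24 CPM (SD) in S280A to 60.2 ± 9.74 CPM in S280D, a log2 difference of 1.17 ± 0.20 (SE, edgeR adjusted p = 0.00231). Pik3cb, another catalytic subunit, rose by 1.10 ± 0.21 (adjusted p = 0.00356), and Irs1, the adaptor of the insulin receptor, by 0.62 ± 0.15 (adjusted p = 0.00927). The regulatory subunit gene Pik3r2 fell by 0.52 ± 0.14 (adjusted p = 0.0158). In WT against YFP 3 rose and 1 fell, where 12.2% and 7.45% of all genes tested did. Pik3ca rose by 1.12 ± 0.20, Irs1 by 0.57 ± 0.15 and the regulatory subunit gene Pik3r1 by 0.78 ± 0.21, while Pik3r2 fell by 0.47 ± 0.14 (adjusted p of 0.00599, 0.025, 0.0279 and 0.0395). Of 6 tested genes for activators of Akt, 2 rose in S280D against S280A. Rictor, a subunit of the mTOR complex that phosphorylates Akt, went from 9.57 ± 2.95 CPM in S280A to 26.2 ± 5.32 CPM in S280D (1.45 ± 0.23, adjusted p = 0.00205). Pdpk1, which encodes PDK1, rose by 0.66 ± 0.21 (adjusted p = 0.0305), and the other 4 tested activator genes did not pass. In WT against YFP Rictor rose by 1.45 ± 0.24 (adjusted p = 0.00489).

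Of the 9 inhibitors and phosphatases of Akt, 1 rose and 2 fell in S280D against S280A, where 21.3% and 18% of all genes tested did. Phlpp2, a phosphatase of Akt, rose by 0.94 ± 0.21 (SE, edgeR adjusted p = 0.00664), Ppp2r1a, the scaffold of phosphatase PP2A, fell by 0.62 ± 0.14 (adjusted p = 0.00768), and the pseudokinase gene Trib3 fell by 0.53 ± 0.15 (adjusted p = 0.0184). Among 9 other Akt substrates, Mdm2 rose by 0.49 ± 0.13 (adjusted p = 0.014), and Akt1s1, Tsc2 and Bad fell. Akt1s1, which encodes the mTOR inhibitor PRAS40, went from 129 ± 14.1 CPM (SD) in S280A to 73.1 ± 1.58 CPM in S280D (-0.82 ± 0.14, adjusted p = 0.00233). Tsc2 fell by 0.59 ± 0.13 (adjusted p = 0.00625) and the cell death gene Bad by 0.58 ± 0.18 (adjusted p = 0.0243).

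Genes closer to GSK-3 also went both ways. Of 8 tested genes for other kinases that phosphorylate its inhibitory serine, 4 rose and 2 fell in S280D against S280A. Beside the counts of this paragraph, 21.3% of all genes tested rose and 18% fell in that contrast. Rps6ka3, which encodes RSK2, went from 24.7 ± 4.88 CPM (SD) in S280A to 54.1 ± 7.75 CPM in S280D (1.13 ± 0.17 SE, edgeR adjusted p = 0.00185), and Rps6kb1, which encodes S6 kinase, from 7.17 ± 2.17 to 18.96 ± 3.24 CPM (1.40 ± 0.26, adjusted p = 0.00306). Both catalytic subunit genes of protein kinase A passed, Prkacb higher by 0.69 ± 0.21 (adjusted p = 0.0259) and Prkaca with a log2 difference of -0.54 ± 0.12 (adjusted p = 0.00625). In the β-catenin destruction complex and partners, 2 of 6 tested genes rose. Apc, its scaffold, rose by 1.18 ± 0.22 (adjusted p = 0.00331) and Csnk1a1, casein kinase 1α, which primes β-catenin for GSK-3, by 1.05 ± 0.17 (adjusted p = 0.00228). Of 8 GSK-3 substrates 2 rose and 1 fell. Gys1, glycogen synthase of muscle, fell by 0.61 ± 0.14 (adjusted p = 0.00856), and Nfatc3, a transcription factor, rose by 0.81 ± 0.20 (adjusted p = 0.0105). Map1b, a microtubule protein, rose by 0.55 ± 0.14 (adjusted p = 0.0132) but stood at -0.05 with the exon length offset, where the median of all genes was -0.13. With that offset Pik3ca stood at 0.74, Apc at 0.66 and Irs1 at 0.26, and the fallen Gys1 and Tsc2 at -0.85 and -0.98.

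Of the 27 pathway genes called in S280D against S280A, 25 were called with lane as a term, 18 under all 8 other settings and 9 without any single library. Among the 9 were Pik3ca, Pik3cb, Rictor, Akt1s1, Rps6kb1, Rps6ka3, Apc and Csnk1a1. The number called dropped without S280A replicate 2 or S280D replicate 1, as did that of all genes. Of the 22 called in S280D against YFP, 10 were called with lane as a term, where all genes called went from 3815 to 1654. Most of the 22 lost the call without some single library. The number dropped without S280D replicate 1 or YFP replicate 1, and so did that of all genes. None of the 14 in WT against YFP was called with lane as a term by edgeR. Of the genes named above for that contrast, Pik3ca, Irs1 and Pik3r2 then had larger log2 differences in absolute value, at 1.18, 0.69 and -0.64. Those of Rictor and Pik3r1 were smaller than without the term, at 1.40 and 0.63. All genes called in that contrast went from 2437 to 9 with lane as a term. The number of pathway genes also dropped without WT replicate 1, YFP replicate 1, WT replicate 2 or S280D replicate 1, as did that of all genes. For the 20 in S280A against WT the number was 7 with lane as a term, where all genes called went from 3226 to 993. Both numbers also dropped without WT replicate 1, WT replicate 2 or S280A replicate 2.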

How the data were processed

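Strand-specific paired-end poly(A) RNA libraries of H9C2 cells, amplified by 15 cycles of PCR per the labels' protocols, were counted by the authors. The deposited table gives total exon, unique exon, exon junction and intron read counts per gene and library, not normalized, per the file headers, and 118 further columns of per-library values were not used. The build is Rnor_6.0, per the submitters' processing notes. The sources used here do not name the aligner or annotation, or say whether counting used strand. The authors' own tests are deposited as p-values corrected by false discovery rate and as signed fold changes, treated here as a score, per the file headers. One WT library has 2 in its title and 3 in its description, and counts as replicate 2.

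Tests on total exon counts used edgeR 4.0.16 (R 4.3.3): filterByExpr, TMM scaling, and the quasi-likelihood fit of all 8 libraries with 1 coefficient per group (4 residual degrees of freedom), two-sided, Benjamini-Hochberg adjustment within each of 6 contrasts, threshold 0.05. Exon counts per library were 14018785 to 39526013. Without molecular identifiers, PCR copies cannot be told from separate molecules. No library pair of a group looked like a duplicate (chi-square per degree of freedom 13.3 to 25.3). Levels per kilobase use the exon length of the table, and log2 CPM for correlations a prior count of 2. Promoter sequences come from RefSeq (GRCr8). Alternatives were DESeq2 1.42.0, RLE size factors, testing genes with any read, fitting just the 4 libraries compared, a replicate block, lane as a term, unique exon reads, a loess offset (span 0.5) on exon length, and leaving out each library in turn.

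The members, the pathway and marker lists and the naming rule were chosen with earlier results of these data known. The rule names the 4 kinases and Ppara, per comparison and role up to 4 called pathway genes by smallest adjusted p, or 2 by smallest p where none was called, and the 3 genes most like each kinase by Pearson's r. Not every gene the rule allows is described. 2 genes of the pathway list enter its counts and are not reported here. The list genes Grb2, Axin1, Frat1, Mcl1 and Nfatc1 and the marker Pecam1 are not analysed here, and Inpp4b, Prr5, Rps6ka2 and Frat2 did not pass the filter on low counts. The scripts were tested on simulated data.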

Additional observations from a re-analysis of the deposited data

How the results depend on the processing

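No called kinase difference changed sign under any setting tried. Over the 4 kinases and 6 comparisons, 175 of the values under other settings and 163 of those with 1 library left out stayed on the same side of the threshold, while 12 and 25 lost the call and 5 and 4 gained it. The number of kinases called (2, 0, 2, 1, 0 and 4 for WT, S280A and S280D against YFP, S280A and S280D against WT, and S280D against S280A) became 0, 0, 1, 0, 0 and 2 with lane as a term. It was 2 for S280A against WT with DESeq2, unique reads, the exon length offset or only the 4 libraries, and 2 for S280D against S280A without the filter, with only the 4 libraries or with the replicate block. With 1 library left out, whose partner is then assumed to vary like the other groups, the kinases called numbered 0 to 2, 0 to 0, 1 to 4, 0 to 2, 0 to 0 and 0 to 4. The pathway genes called (14, 0, 22, 20, 0 and 27) became 0, 0, 10, 7, 0 and 25 with lane as a term, and 0 to 18, 0 to 0, 6 to 25, 0 to 24, 0 to 0 and 10 to 28 with 1 library left out.

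All genes called numbered 2437, 5, 3815, 3226, 5 and 4873, and with lane as a term 9, 2, 1654, 993, 1 and 4009. For S280A against YFP they numbered 278 without the filter, 100 with DESeq2, 8 with the length offset and 38 with only the 4 libraries, and for S280D against WT 129 without the filter, 40 with DESeq2, 33 with only the 4 libraries and 3 with the replicate block. With 1 library left out they numbered 163 to 2917, 2 to 131, 917 to 4152, 6 to 3859, 0 to 13 and 1254 to 5223. The length offset turned 1513 higher and 924 lower genes in WT against YFP into 1401 and 1598, 2116 and 1699 in S280D against YFP into 1784 and 2579, 1250 and 1976 in S280A against WT into 2049 and 1659, and 2641 and 2232 in S280D against S280A into 2169 and 3162. The cause of these changes was not tested.

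With unique reads the Gsk3a to Gsk3b ratio was 0.446 in YFP and 0.224 in S280D. Leaving 1 library out of a group of 2 returns the ratio of the other library, so it adds no check beyond the single values. These ran from 0.467 to 0.530 in YFP, 0.267 to 0.33 in WT, 0.377 to 0.496 in S280A and 0.243 to 0.251 in S280D. For the Akt1 to Akt2 ratio they ran from 12.7 to 14.4, 11.9 to 12.4, 11.9 to 13.4 and 12.1 to 12.4. The replicate numbers were not taken to pair the libraries: the differences between replicates 1 and 2 correlated at 0.118 to 0.205 between the receptor groups and at -0.173 to -0.0916 between YFP and WT, S280A or S280D. With the replicate block Gsk3a and Akt2 lost their calls in S280D against S280A (adjusted p = 0.0551 and 0.0547), and no other kinase call changed. Depth limits the intron values of Akt1 (35 to 164 reads per library) and Akt2 (22 to 117).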
